A study of Homo sapiens with 36 samples.

Results

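CD38 and 9 further genes of NAD metabolism were followed in THP-1 monocytes exposed to buffered hypercapnia, with and without LPS. The 10 genes were CD38, BST1, NAMPT, NAPRT, NADK, NMNAT1, NMNAT3, NADSYN1, SIRT1 and PARP1, taken by symbol from 57500 annotated genes. CD38 was selected on its measured level, which was lower at 10% than at 5% CO2 in these same libraries. The CO2 difference of CD38 is therefore given below as a description, with no test. All 10 genes were among the 17720 that had enough counts to be tested, and each had counts in every library.

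THP-1 is a human cell line derived from a monocytic leukaemia. The cells carried a lentiviral short hairpin RNA, which was a non-target sequence in shNT, a hairpin against NR4A2 in shNR4A2 and a hairpin against NR4A3 in shNR4A3. NR4A2 and NR4A3 are orphan nuclear receptors that act as transcription factors, and the series asked how their depletion alters the monocyte response to raised CO2. Cells of each line spent 4 h in buffered medium at 5% or 10% CO2, and LPS, a bacterial cell wall product sensed by Toll-like receptor 4, was added to part of them at 2.5 µg/ml for the last 2 h. This gave 12 conditions of 3 replicates each, 36 polyA RNA-seq libraries in all. Every condition, controls included, was a transduced THP-1 line, and whether more than 1 hairpin or 1 transduced population stood behind a line was not given in the sources used here. The study's legends describe the replicates as separate experiments. The main fits left out the replicate number, so their p-values measure the spread between libraries of a condition. That spread includes any shift that same-numbered libraries share, and all libraries were treated as independent. Fits with the replicate number as a block were run as an alternative.

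NAD carries electrons in energy metabolism and is also consumed as a substrate by signalling enzymes. CD38 is a surface ectoenzyme that splits NAD into nicotinamide, ADP-ribose and the calcium messenger cyclic ADP-ribose, and its close relative BST1 (CD157) has the same kind of activity. Sirtuins such as SIRT1 and poly(ADP-ribose) polymerases such as PARP1 are the other large NAD consumers. Cells refill the pool by salvage of nicotinamide through NAMPT, from nicotinic acid through NAPRT, or de novo from tryptophan. The NMNAT enzymes then add the adenylyl group, NADSYN1 amidates the acid form to NAD, and NADK phosphorylates NAD to NADP. NAMPT induction by inflammatory signals is well known in myeloid cells, and CD38 is widely used as an activation marker of leukocytes.

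Library totals ran from 16171161 to 23929138 counts with a median of 19639071. Levels are given as RPKM, counts scaled by the counted exon length of the gene and by the TMM-scaled size of the library, which can be compared between genes and between libraries. NR4A2 averaged 18.4 RPKM in shNT at 5% CO2 with LPS and 6.40 in shNR4A2, and its ranges in those lines did not overlap in any of the 4 conditions. NR4A3 averaged 9.34 RPKM in shNT at 5% CO2 with LPS and 5.29 in shNR4A3, while its low ranges at 10% CO2 without LPS overlapped. Of 10 monocytic markers 9 had a median of at least 1 RPKM, CD68 being the exception at 0.906. The summed T cell markers stayed at or below 0.462 RPKM, and the plasma cell markers at or below 0.391. Of the NK cell list, NKG7 (median 12.6 RPKM) and NCAM1 (2.53) were expressed, while GNLY had a median of 0.179 RPKM and KLRD1 of 0. In such bulk RNA, fewer cells expressing a gene and less RNA per cell cannot be told apart.

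CD38 (ENSG00000004468) spans chr4:15778275-15853230 on the plus strand of GRCh38 and was counted over 6855 exon bases that no other annotated gene shares. BST1 (chr4:15702950-15738313, plus strand) lies 39961 bases upstream of it. SIRT1 (ENSG00000096717) occupies chr10:67884669-67918390 on the plus strand and also shares no counted base with another gene. The levels of CD38 and SIRT1 moved together over the conditions, as described below, and the genomic sequence just before each gene is shown for that reason. The stretches, from RefSeq promoter windows of GRCh38.p14, are chr4:15778078-15778274 for CD38 and chr10:67884406-67884655 for SIRT1, both on the plus strand and with matches to the E-box CACGTG in capitals.
CD38: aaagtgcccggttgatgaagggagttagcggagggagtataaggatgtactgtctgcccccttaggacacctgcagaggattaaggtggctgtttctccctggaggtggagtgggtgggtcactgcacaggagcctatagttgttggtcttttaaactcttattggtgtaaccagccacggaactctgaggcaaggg
SIRT1: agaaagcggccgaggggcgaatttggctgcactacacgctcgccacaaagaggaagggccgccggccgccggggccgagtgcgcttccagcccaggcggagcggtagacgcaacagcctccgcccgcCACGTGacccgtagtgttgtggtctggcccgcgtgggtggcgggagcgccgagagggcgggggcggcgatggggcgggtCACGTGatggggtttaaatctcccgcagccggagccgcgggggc

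The 250 bases before the SIRT1 start held 2 E-boxes, at 123 to 118 and 44 to 39 bases before the start, whereas the window of CD38 held none. Windows of the same length were searched on both strands for 6 motifs. They were the NR4A half-site AAAGGTCA (present in 1.05% of 35116 RefSeq windows), the cAMP response element TGACGTCA (1.65%), the AP-1 site TGANTCA (6.57%), the NF-kB consensus (5.21%), the ETS core CCGGAAG (8.52%) and the E-box (6.35%), the last added once the sequences had been read. None of the 6 matched the CD38 window. Entries for 8 of the 10 genes were used, those other than BST1 and NAPRT, and matches also stood before NADK (E-box), NMNAT1 (NF-kB and 2 ETS) and PARP1 (NF-kB). These are letter matches in a short window and carry no evidence on binding.

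Averaged over lines and CO2 levels, LPS raised NAMPT 7.36-fold and CD38 1.48-fold, and SIRT1 rose by a smaller amount. LPS lowered NMNAT1, NADK and NMNAT3. Averaged over CO2 and LPS, shNR4A2 cells held less CD38 and SIRT1 than shNT cells and more NAMPT and NAPRT, and shNR4A3 cells held more NAPRT and NADK. At 10% CO2 NMNAT1 was higher, and CD38 lay 0.60 log2 units below its level at 5% CO2 on average. BST1 and PARP1 passed the threshold in none of these 4 averages as fitted, and the settings under which they did are given with each gene.

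**Figure D1:**
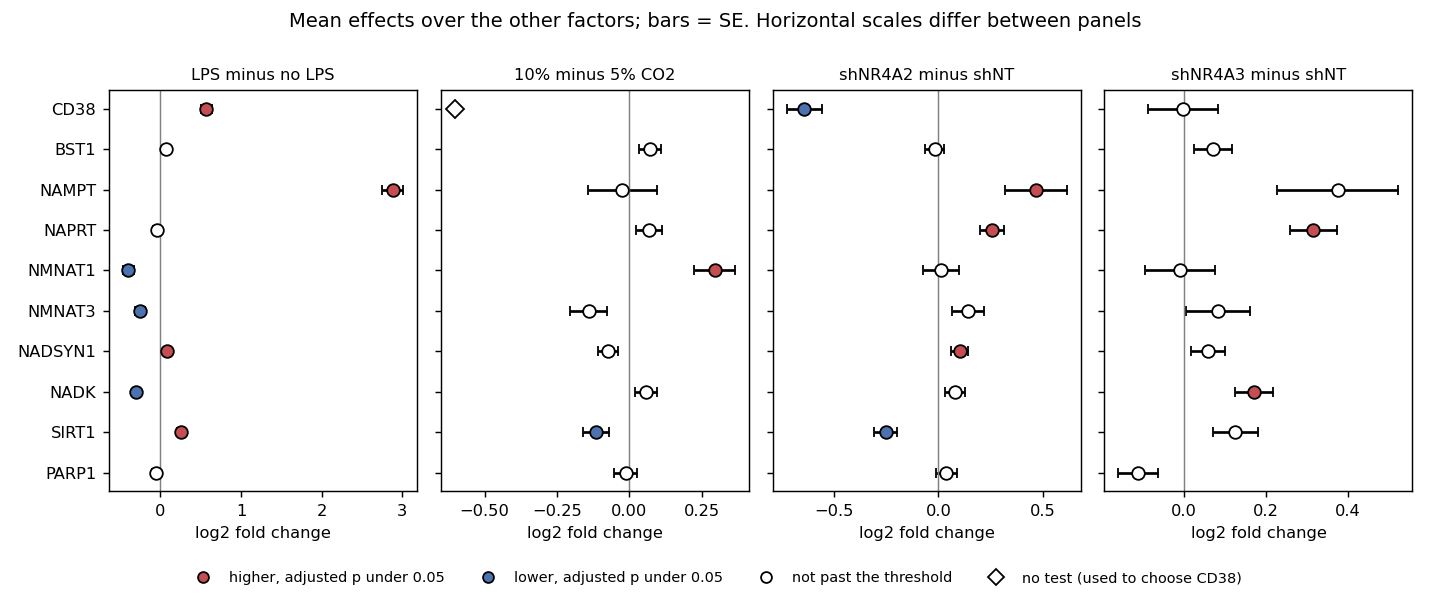
Log2 fold changes of the 10 genes for LPS against no LPS, 10% against 5% CO2, shNR4A2 against shNT and shNR4A3 against shNT, each averaged over the other factors in 1 edgeR fit to 36 libraries, with SE bars and a separate horizontal scale per panel. Filled circles passed an adjusted p of 0.05, and the open diamond is the untested CO2 difference of CD38 at −0.60. NAMPT lies farthest right under LPS at 2.88 and CD38 farthest left in the shNR4A2 panel at −0.64.

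Counts of called genes have to be read against the share of all tested genes called in the same comparison. The averaged LPS effect was called for 7 of the 10 genes when 64.6% of all genes were called. The averaged shNR4A2 effect was called for 5 of 10 (40.9% of all genes) and the averaged shNR4A3 effect for 2 of 10 (32.9%). Of the 9 genes other than CD38, 2 were called for the averaged CO2 effect (36.4%). The list as a whole was thus called about as often as genes in general, and its median averaged LPS effect of 0.01 log2 units was near that of all genes at −0.01. The results below concern single genes, each with its own size and error.

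CD38 had 9.30, 7.45 and 7.13 RPKM in the basal shNT libraries at 5% CO2 and 5.91, 4.81 and 4.61 at 10% CO2. In shNR4A2 cells the basal values were 5.84, 5.27 and 3.78 RPKM at 5% CO2 and 3.34, 2.68 and 2.63 at 10% CO2. In shNR4A3 cells they were 7.53, 8.004 and 6.27 RPKM at 5% CO2 and 5.66, 4.55 and 4.603 at 10% CO2. In each of the 3 lines every basal library at 10% CO2 thus lay below every one at 5% CO2. With LPS the shNT values were 11.2, 11.6 and 8.82 RPKM at 5% CO2 and 7.70, 6.50 and 6.93 at 10% CO2. The LPS-stimulated shNR4A2 libraries had 8.04, 7.10 and 5.56 RPKM at 5% CO2 and 6.31, 4.75 and 4.55 at 10% CO2. Those of shNR4A3 had 13.4, 12.1 and 8.88 RPKM at 5% CO2 and 8.25, 6.84 and 6.87 at 10% CO2. Under LPS the ranges at the 2 CO2 levels stood apart in shNT and shNR4A3 and overlapped in shNR4A2.

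The CO2 differences of CD38, which chose the gene and carry no test, were −0.63 log2 units in basal and −0.57 in LPS-stimulated shNT cells. They were −0.78 and −0.41 in shNR4A2 and −0.55 and −0.64 in shNR4A3. CD38 was lower without overlap in 5 of the 6 comparisons. The share of tested genes lower without overlap was 9.67% and 14.5% for basal and LPS-stimulated shNT, 7.35% and 10.6% for shNR4A2, and 11.1% and 13.1% for shNR4A3. Of the 17720 genes, 226 were lower without overlap in 5 comparisons and 110 in 6, so the pattern was shared with other genes.

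**Figure D2:**
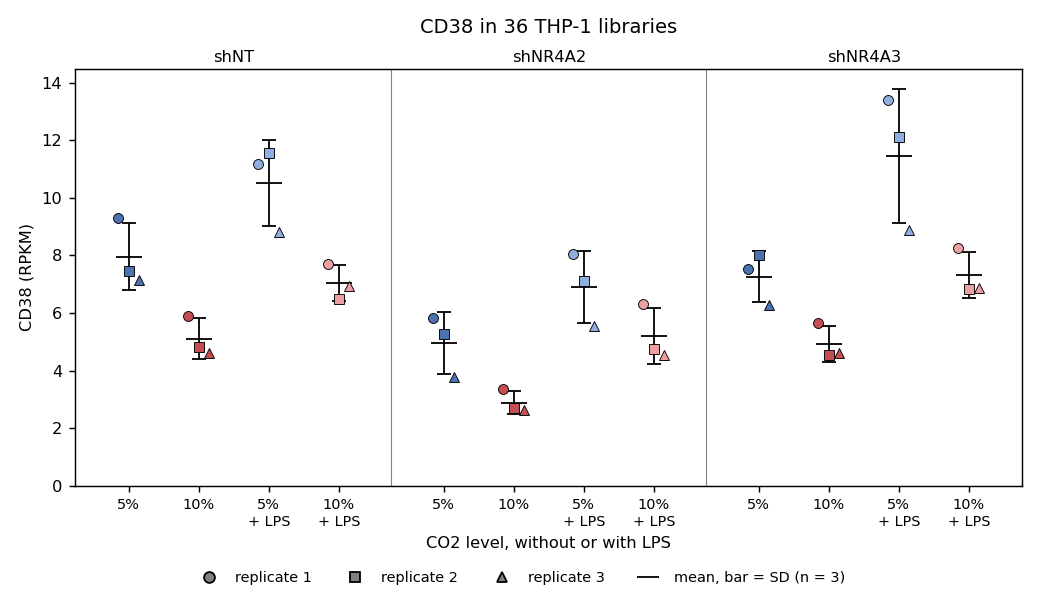
CD38 level in RPKM in each of 36 THP-1 libraries, by line, CO2 level and LPS. Symbols mark replicates, and the horizontal line with its bar is the mean with its SD (n = 3). The condition means run from 2.88 RPKM in basal shNR4A2 cells at 10% CO2 to 11.5 RPKM in shNR4A3 cells at 5% CO2 with LPS.

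CD38 condition means spanned 3.98-fold. From the top, shNR4A3 at 5% CO2 with LPS (11.5 ± 2.33 RPKM, SD, n = 3) was followed by shNT at 5% CO2 with LPS (10.5 ± 1.48) and basal shNT at 5% CO2 (7.96 ± 1.17). The next 4 means lay between 7.32 and 6.90 RPKM and belonged to shNR4A3 at 10% CO2 with LPS, basal shNR4A3 at 5% CO2, shNT at 10% CO2 with LPS and shNR4A2 at 5% CO2 with LPS. Then came 4 means between 5.20 and 4.94 RPKM, those of shNR4A2 at 10% CO2 with LPS, basal shNT at 10% CO2, basal shNR4A2 at 5% CO2 and basal shNR4A3 at 10% CO2. Neighbours in this order had overlapping ranges at each step but the last, where basal shNR4A2 cells at 10% CO2 (2.88 ± 0.399 RPKM) lay apart from all above.

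LPS raised CD38 on average by 0.57 ± 0.07 log2 units (SE, adjusted p = 1.36e-08), and the size stayed between 0.36 and 0.60 over 42 alternative settings. By line, the rise was 0.41 ± 0.12 (adjusted p = 0.0205) in shNT at 5% CO2 and 0.47 ± 0.12 (0.00515) at 10% CO2. In shNR4A3 cells it was 0.66 ± 0.15 (0.00628) and 0.59 ± 0.10 (0.000472). In shNR4A2 cells it reached 0.86 ± 0.14 (0.000202) at 10% CO2, whereas at 5% CO2 the difference of 0.47 ± 0.17 did not pass (0.0764) until the replicate number was used as a block (0.48, adjusted p = 0.00378). CD38 was higher without overlap in 4 of the 6 LPS comparisons, all but those of shNT and shNR4A2 at 5% CO2. The share of all genes higher without overlap was 21.3% and 22.0% for shNT and shNR4A2 at 10% CO2, and 19.4% and 24.5% for shNR4A3 at 5% and 10% CO2. The shNT call at 5% CO2 was lost without its basal replicate 2 (adjusted p = 0.116) or 3 (0.103) or its LPS replicate 1 (0.0631) or 2 (0.0858), and in 1 fit to all 36 libraries (0.0819). Both shNT calls were also lost when libraries were scaled by total count alone (0.170 at 5% and 0.0996 at 10% CO2).

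CD38 was lower in shNR4A2 than in shNT cells in all 4 conditions, with no overlap in any. The difference was −0.68 ± 0.16 log2 units at 5% CO2 (adjusted p = 0.0241), −0.60 ± 0.15 at 5% CO2 with LPS (0.0367), −0.84 ± 0.14 at 10% CO2 (0.000394) and −0.44 ± 0.12 at 10% CO2 with LPS (0.0202). The share of all genes lower without overlap was 12.6%, 13.1%, 12.6% and 18.6% in that order. CD38 was the sole member called in the first 3 of these comparisons, in which 5.69%, 6.21% and 7.95% of all genes were called, and 1 of 2 called in the last (18.9%). On average CD38 fell by 0.64 on the log2 scale (SE 0.09, adjusted p = 3.38e-07), that is, the level dropped by 35.8%, and no alternative ended that call.

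Single libraries decided 3 of the 4 CD38 calls taken alone. The call at 5% CO2 was lost without shNT replicate 1 (adjusted p = 0.104) or shNR4A2 replicate 3 (0.0565). That at 5% CO2 with LPS was lost without shNT replicate 1 (0.123) or 2 (0.139) or shNR4A2 replicate 2 (0.0571) or 3 (0.0749). The call at 10% CO2 with LPS was lost without shNT replicate 1 (0.0665) or 3 (0.0675) or shNR4A2 replicate 2 (0.0824) or 3 (0.0962), and in 1 fit to all 36 libraries (0.0746).

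In shNR4A3 cells the CD38 level was close to that of shNT cells. The differences were −0.13 ± 0.12, 0.12 ± 0.15, −0.06 ± 0.12 and 0.06 ± 0.10 log2 units in the same order of conditions, with adjusted p-values between 0.618 and 0.854. The direct contrast of the 2 depleted lines, added after the data had been seen, gave a CD38 difference of −0.64 ± 0.09 log2 units in shNR4A2 relative to shNR4A3 cells (adjusted p = 6.13e-07). SIRT1 (−0.38 ± 0.06, 1.81e-06) and PARP1 (0.15 ± 0.05, 0.0184) were the other members called there, 3 of 10 where 29.7% of all genes were called.

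BST1, which neighbours CD38 in the genome and shares its enzyme activity, had a narrow range. It ran from 14.03 to 18.8 RPKM over the 36 libraries with a median of 16.9. That 1.34-fold span compares with 5.10-fold for CD38. Its averaged LPS difference of 0.07 log2 units was not called. It passed with RLE factors (0.09, adjusted p = 0.0284), with DESeq2 (0.09, 0.0314) and without shNT 5% CO2 replicate 2 (0.0464) or shNR4A2 5% CO2 replicate 2 (0.0397), and it was −0.14 when libraries were scaled by total count alone.

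NAMPT, the rate-limiting enzyme of nicotinamide salvage, showed the largest change of the 10 genes. Basal shNT libraries had 3.27, 2.63 and 3.56 RPKM at 5% CO2, and with LPS 21.6, 14.3 and 15.9. In shNR4A2 cells the corresponding values were 3.94, 2.95 and 4.20 RPKM without LPS and 40.5, 19.7 and 25.8 with it, and in shNR4A3 cells 3.38, 2.58 and 3.81 without and 45.3, 18.6 and 26.7 with. Over both CO2 levels the 18 basal libraries lay between 2.58 and 4.20 RPKM and the 18 LPS libraries between 14.3 and 45.3, so the states stood apart without overlap. For comparison, 18.3%, 21.3%, 16.8%, 22.0%, 19.4% and 24.5% of all genes were higher with LPS without overlap in shNT, shNR4A2 and shNR4A3 at 5% and 10% CO2. The rise was 2.46 ± 0.17 and 2.42 ± 0.13 log2 units in shNT at 5% and 10% CO2. It was 2.95 ± 0.26 and 3.19 ± 0.22 in shNR4A2 and 3.21 ± 0.34 and 3.09 ± 0.26 in shNR4A3, with adjusted p-values from 2.13e-10 to 0.000485 over the 6. The averaged rise was 2.88 ± 0.13 (adjusted p = 5.82e-17).

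**Figure D3:**
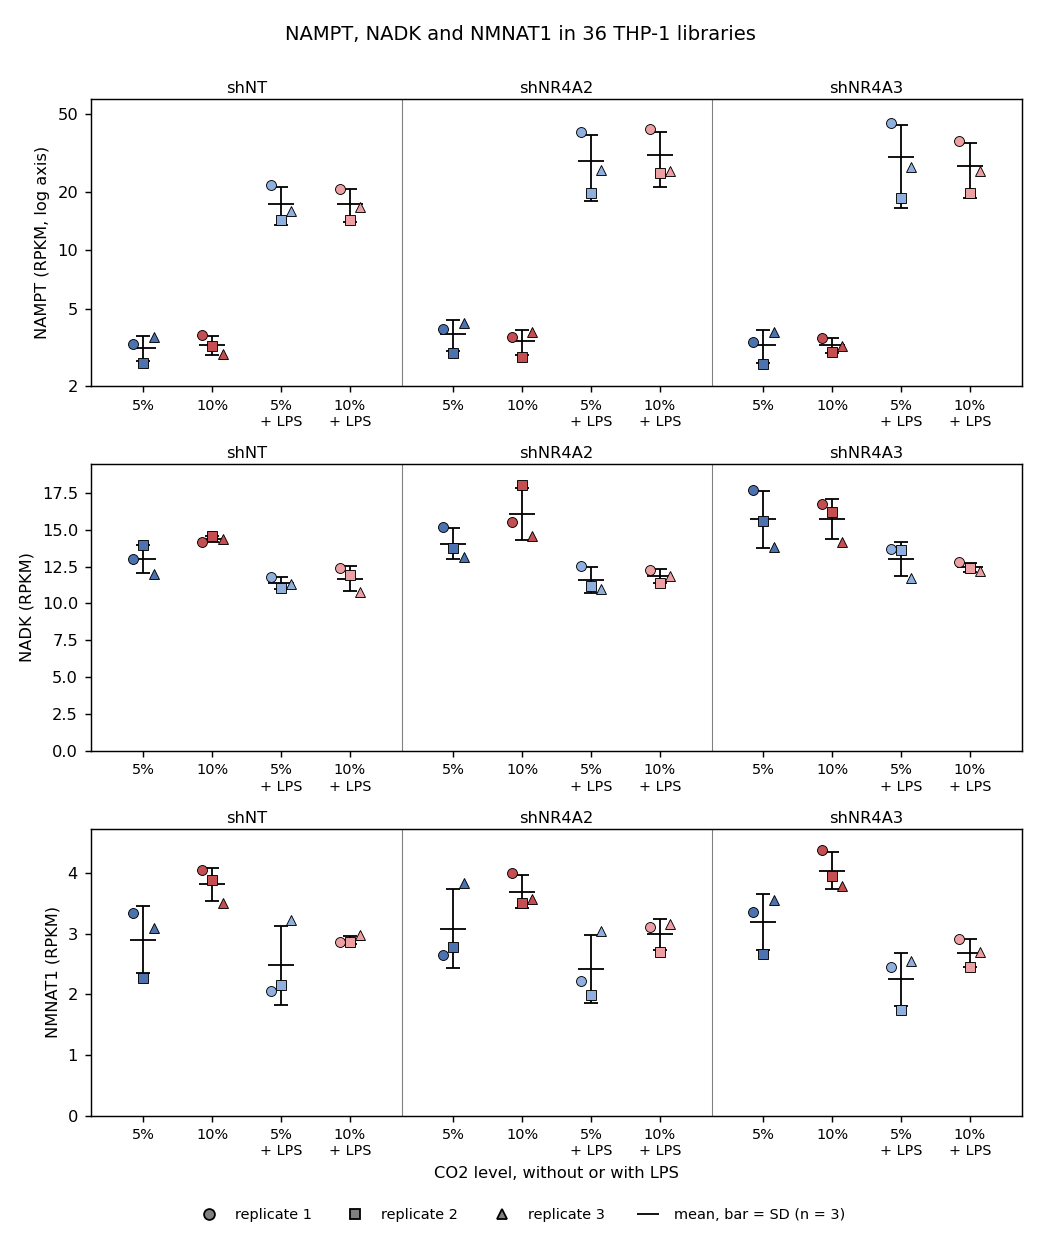
Levels in RPKM of NAMPT (log axis), NADK and NMNAT1 in each of 36 THP-1 libraries by line, CO2 level and LPS, with the mean and SD (n = 3). NAMPT separates into a basal band of 2.58 to 4.20 RPKM and an LPS band of 14.3 to 45.3, and NADK lies lower with LPS in each line.

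LPS-stimulated NAMPT had higher means in the depleted lines than in shNT, with a wide spread. Its condition means with LPS were 17.3 ± 3.83 and 17.3 ± 3.24 RPKM in shNT at 5% and 10% CO2, 28.7 ± 10.7 and 30.9 ± 9.63 in shNR4A2, and 30.2 ± 13.7 and 27.2 ± 8.51 in shNR4A3. Replicate 1 was the highest of its 3 in each of these 6 conditions. Among the LPS conditions each neighbour in the order of means overlapped the next. At 10% CO2 with LPS the shNR4A2 values were 42.0, 25.1 and 25.6 RPKM, above the shNT values of 20.8, 14.3 and 16.7. How common such a separation was among all genes is not given here, and 18.9% of all genes were called in that comparison. The ranges of the other matched pairs of a depleted line and shNT with LPS overlapped. Within each replicate number, however, NAMPT was higher in the depleted line in each of these pairs. In replicate order the shNR4A3 values at 10% CO2 with LPS were 36.4, 19.7 and 25.4 RPKM. The difference between shNR4A2 and shNT with LPS was 0.74 ± 0.28 log2 units at 5% CO2 (adjusted p = 0.191) and 0.83 ± 0.24 at 10% CO2 (0.0668). With the replicate number as a block the former passed (0.70, adjusted p = 1.05e-11), as did basal shNR4A2 at 5% CO2 (0.23, 0.0420 against 0.438 without the block) and shNR4A3 at 5% CO2 with LPS (0.74, 0.00331 against 0.256). Averaged over conditions NAMPT rose by 0.47 ± 0.15 in shNR4A2 cells (0.0127), and the value for shNR4A3 was 0.37 ± 0.15 (0.0524). The latter passed in 11 of 42 alternatives, among them the replicate block (0.36, 0.00173), a 1 CPM filter (0.0391) and DESeq2 (0.0416). The other 8 each left out 1 library, namely replicate 1 of shNT 5% CO2 + LPS (0.0327), shNT 10% CO2 + LPS (0.0403), shNR4A2 5% CO2 + LPS (0.0375) or shNR4A2 10% CO2 + LPS (0.0423), or replicate 2 of shNR4A2 5% CO2 + LPS (0.0433), shNR4A3 5% CO2 (0.0408), shNR4A3 5% CO2 + LPS (0.0167) or shNR4A3 10% CO2 + LPS (0.02998). The difference of the LPS response itself was 0.63 ± 0.29 for shNR4A2 (adjusted p = 0.926) and 0.71 ± 0.29 for shNR4A3 (0.418). NAMPT shared 8.69% of its counted bases with an antisense gene, whose reads cannot be told apart without the strand setting, which was not given.

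NAPRT, which starts NAD synthesis from nicotinic acid, was higher in the depleted lines, and none of its LPS differences passed, apart from the averaged one with scaling by total count alone (−0.25 log2 units, adjusted p = 8.4e-06). The shNT libraries at 5% CO2 had 36.9, 41.5 and 31.6 RPKM without LPS and 37.8, 36.3 and 37.2 with it. The shNR4A3 libraries had 54.0, 56.0 and 43.3 RPKM without LPS and 47.9, 46.8 and 45.8 with it. No shNR4A3 value at 5% CO2 reached down to the shNT range. At 10% CO2 with LPS the shNT values were 39.5, 42.1 and 39.9 RPKM against 48.9, 49.02 and 48.96 in shNR4A3 cells. NAPRT was the one member called against shNT in shNR4A3 cells at 5% CO2 (0.48 ± 0.12 log2 units, adjusted p = 0.0212, with 6.19% of all genes called), at 5% CO2 with LPS (0.34 ± 0.07, 0.0201, 5.41%) and at 10% CO2 with LPS (0.28 ± 0.06, 0.0121, 14.5%). The lines did not overlap in these 3 conditions, where 12.2%, 12.7% and 15.6% of all genes were higher without overlap. At basal 10% CO2 it did not pass (0.17 ± 0.10, 0.376), no member was called by edgeR or DESeq2 there, and none had an unadjusted p under 0.05, with 6.85% of all genes called. Averaged over conditions NAPRT rose by 0.32 ± 0.06 in shNR4A3 (3.88e-05) and by 0.26 ± 0.06 in shNR4A2 (0.000372), and no alternative ended either call.

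**Figure D4:**
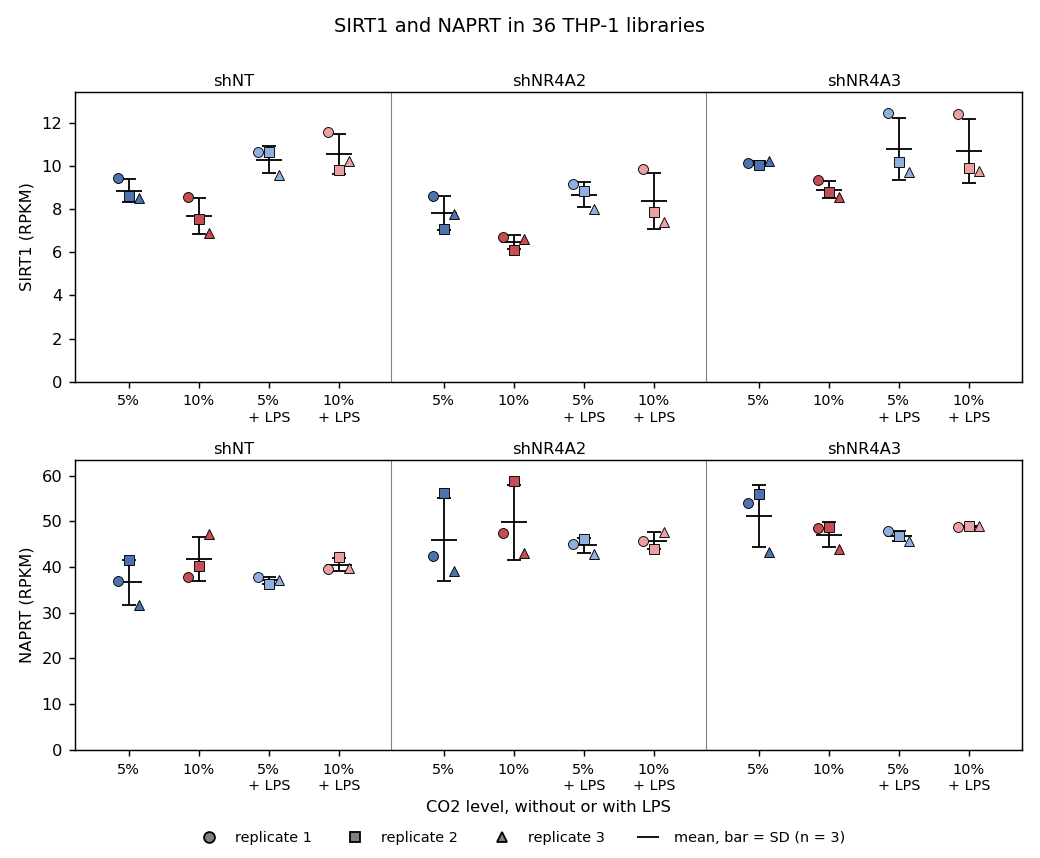
Levels in RPKM of SIRT1 and NAPRT in each of 36 THP-1 libraries by line, CO2 level and LPS, with the mean and SD (n = 3). SIRT1 lies lowest in basal shNR4A2 cells at 10% CO2, at 6.09 to 6.72 RPKM, and NAPRT lies lowest in shNT cells at 5% CO2, down to 31.6 RPKM.

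The NAPRT calls in single conditions rested on few libraries. At 5% CO2 the call was lost without shNT replicate 1 (adjusted p = 0.0631) or 3 (0.0831) or shNR4A3 replicate 1 (0.0739) or 2 (0.0765). At 5% CO2 with LPS it was lost without shNT replicate 1 (0.0585), 2 (0.104) or 3 (0.0660) or shNR4A3 replicate 1 (0.0696) or 3 (0.0781), and at 10% CO2 with LPS without shNT replicate 3 (0.0701). The calls with LPS were also lost in 1 fit to all 36 libraries (0.0532 at 5% and 0.111 at 10% CO2). In shNR4A2 cells NAPRT passed with the replicate block, at 5% CO2 (0.32, adjusted p = 0.00224, against 0.221 without the block) and at 5% CO2 with LPS (0.28, 0.00116, against 0.0739). NAPRT shared 37.3% of its counted bases with 2 genes on the opposite strand. Whether reads over those bases were counted for NAPRT, for them or for neither depends on settings that were not given, so its level is less certain.

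NMNAT1, the nuclear adenylyltransferase, had the smallest adjusted p of the 9 tested members for the averaged CO2 difference. Basal shNT libraries had 3.34, 2.28 and 3.09 RPKM at 5% CO2 and 4.05, 3.89 and 3.51 at 10% CO2. Basal shNR4A3 libraries had 3.36, 2.67 and 3.56 RPKM at 5% CO2 and 4.39, 3.96 and 3.79 at 10% CO2. In both lines the values at 10% CO2 lay above those at 5% CO2 (10.2% and 11.1% of all genes were higher without overlap), while in the other 4 comparisons they overlapped. The 6 single CO2 differences lay between 0.23 and 0.40 log2 units and none passed. Their average of 0.29 ± 0.07 did (adjusted p = 0.0011), and it held under each alternative, with adjusted p-values up to 0.00246. LPS lowered NMNAT1 by 0.39 on average (SE 0.07, adjusted p = 7.22e-06). NMNAT1 shared 9.46% of its counted bases with another gene on the same strand, where reads cannot be told apart by strand.

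Taken one at a time, the NMNAT1 LPS difference was called in shNT at 10% CO2 (−0.38 ± 0.12, adjusted p = 0.0230) and in shNR4A3 at 5% (−0.50 ± 0.17, 0.0481) and 10% CO2 (−0.57 ± 0.11, 0.000833). In shNT at 10% CO2 it was lost without basal replicate 1 (0.0505) or 2 (0.0807) or any 1 of the 3 LPS replicates (0.0607 to 0.0755), and in 1 fit to all 36 libraries (0.0704). In shNR4A3 at 5% CO2 it was lost without basal replicate 1 (0.121) or 3 (0.173) or any 1 of the 3 LPS replicates (0.0558 to 0.138), and with RLE factors (0.0591), a 1 CPM filter (0.0508) or DESeq2 (0.0658).

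For the CO2 comparisons of the 9 genes other than CD38, edgeR called 0 of 54 single tests, with 4 below 0.05 before adjustment, and DESeq2 likewise 0. The share of all genes called was 0.615% in basal and 8.19% in LPS-stimulated shNT cells, 0.0113% and 0.198% in shNR4A2, and 1.13% and 2.13% in shNR4A3.

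NMNAT3, the mitochondrial adenylyltransferase, was the least expressed member at 1.04 to 1.94 RPKM, with 59 to 154 counts per library. LPS lowered it by 0.25 on average (SE 0.06, adjusted p = 0.000638). In shNR4A2 cells at 10% CO2 it fell from 1.74, 1.88 and 1.54 RPKM to 1.04, 1.21 and 1.23 (−0.55 ± 0.18 log2 units, adjusted p = 0.0247). In shNR4A3 cells at 10% CO2 it fell from 1.71, 1.71 and 1.58 RPKM to 1.11, 1.23 and 1.29 (−0.44 ± 0.15, 0.0329). The former call was lost without basal replicate 2 (0.0780) or LPS replicate 1 (0.0784) or 2 (0.0624), and with DESeq2 (0.0774). The latter was lost without any 1 of the basal replicates (0.0567 to 0.0963) or without LPS replicate 1 (0.0901) or 2 (0.0592), and with DESeq2 (0.129) or no filter on low counts (0.0628).

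NADK, the cytosolic NAD kinase, was lower with LPS in each line and at each CO2 level. Its 18 basal libraries lay between 12.02 and 18.03 RPKM and its 18 LPS libraries between 10.7 and 13.7. Within each of the 6 comparisons the LPS values lay below the basal values, a state shared by 19.4%, 23.2%, 17.8%, 25.1%, 21.3% and 27.5% of all genes in shNT, shNR4A2 and shNR4A3 at 5% and 10% CO2. LPS lowered NADK by 0.30 on average (SE 0.04, adjusted p = 1.16e-08). The single difference was called at 10% CO2 in shNT (−0.29 ± 0.10, adjusted p = 0.0271), shNR4A2 (−0.43 ± 0.10, 0.00353) and shNR4A3 (−0.32 ± 0.08, 0.00399). The shNT call was lost without basal replicate 2 (0.0952) or LPS replicate 2 (0.0759) or 3 (0.172). At 5% CO2 the differences in shNR4A2 (−0.28, 0.125) and shNR4A3 (−0.27, 0.0879) passed with the replicate block (−0.28, 0.0389 and −0.27, 0.0114). NADK rose by 0.17 ± 0.05 in shNR4A3 against shNT on average (0.00389).

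NADSYN1, the glutamine-dependent NAD synthetase, stayed between 3.33 and 4.67 RPKM. Its averaged LPS effect of 0.08 log2 units (adjusted p = 0.0367) and averaged shNR4A2 effect of 0.10 (0.0455) were small, and were lost in 12 and 21 of 42 alternatives with adjusted p-values up to 0.283 and 0.403.

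SIRT1, the nuclear NAD-dependent deacetylase, shared the direction of CD38 in the tests of LPS and of shNR4A2. At 10% CO2 its shNT values were 8.56, 7.56 and 6.90 RPKM without LPS and 11.6, 9.82 and 10.2 with it. The shNR4A2 values were 6.72, 6.09 and 6.62 RPKM without LPS and 9.88, 7.87 and 7.40 with it, and those of shNR4A3 were 9.36, 8.82 and 8.57 without and 12.4, 9.91 and 9.79 with. At 10% CO2 each LPS library thus lay above each basal one in all 3 lines, as held for 21.3%, 22.0% and 24.5% of all genes in shNT, shNR4A2 and shNR4A3. The rise at 10% CO2 was 0.47 ± 0.11 log2 units in shNT (adjusted p = 0.00399), 0.38 ± 0.12 in shNR4A2 (0.0221) and 0.28 ± 0.10 in shNR4A3 (0.02996). At 5% CO2 the values of 0.22, 0.14 and 0.09 did not pass (0.107, 0.509 and 0.611).

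The difference of the SIRT1 LPS response between the CO2 levels was itself 0.21 ± 0.09 log2 units (adjusted p = 0.237) and was called with the replicate block. The averaged LPS rise was 0.26 ± 0.05 (5.85e-06), but was 0.04 (0.327) when libraries were scaled by total count alone, a scaling that shifts the median LPS effect of all genes to −0.22. That scaling also ended the 3 calls at 10% CO2, in shNT (0.25, 0.0899), shNR4A2 (0.13, 0.377) and shNR4A3 (0.03, 0.816). The shNR4A2 call was lost without basal replicate 2 (0.0593) or LPS replicate 1 (0.119), and the shNR4A3 call without basal replicate 2 (0.0875) or 3 (0.105) or LPS replicate 1 (0.158), in 1 fit to all 36 libraries (0.0531) or with no filter on low counts (0.0550).

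SIRT1 fell by 0.25 on average in shNR4A2 against shNT cells (SE 0.06, adjusted p = 0.000368), a call kept under all 42 alternatives. Of the single conditions 10% CO2 with LPS passed (−0.34 ± 0.11, 0.0462), and was lost without any 1 of the shNT replicates (0.0522 to 0.151) or without shNR4A2 replicate 2 (0.151) or 3 (0.181), and with RLE factors (0.0559) or DESeq2 (0.0584). At 5% CO2 with LPS the difference of −0.24 passed with the replicate block (0.0190 against 0.191). The averaged CO2 difference of −0.12 ± 0.05 (0.0408) was lost in 22 of 42 alternatives, with adjusted p-values up to 0.1196.

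PARP1, the main poly(ADP-ribose) polymerase of DNA repair, was the most abundant member at 55.3 to 78.4 RPKM. It passed in none of the 4 averaged effects, the nearest being −0.11 ± 0.05 log2 units in shNR4A3 cells (adjusted p = 0.0783). That effect passed with the replicate block (−0.11, 0.0013) and without shNT 5% CO2 + LPS replicate 1 (0.0462), shNR4A3 5% CO2 replicate 2 (0.0441) or shNR4A3 5% CO2 + LPS replicate 2 (0.0410). The averaged LPS difference of PARP1 passed with the block (−0.06, 0.0256) and with scaling by total count alone (−0.27, 3.47e-06).

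The single LPS comparisons called 2 and 5 of the 10 members in shNT at 5% and 10% CO2 (22.9% and 31.2% of all genes), 1 and 5 in shNR4A2 (18.2% and 35.0%) and 3 and 6 in shNR4A3 (25.3% and 42.1%). For the interactions of LPS with CO2, LPS with either depletion and CO2 with either depletion, edgeR called 0 of 47 member tests, with 3 below 0.05 before adjustment, and DESeq2 likewise 0. The share of all genes called was 1.99% for LPS with CO2, 0.237% and 0.378% for LPS with shNR4A2 and shNR4A3, and 0.00% for both CO2 interactions. Averaged over the LPS states, CD38's CO2 difference changed by 0.01 log2 units between either depleted line and shNT, given without a test. In the values given above, the CO2 difference in shNR4A2 was larger than in shNT without LPS and smaller with LPS, and in shNR4A3 the reverse held. These gaps were not tested. Over the alternatives the range of each depleted line overlapped that of shNT in both LPS states. Without LPS the ranges were −0.75 to −0.50 in shNT, −0.94 to −0.65 in shNR4A2 and −0.66 to −0.48 in shNR4A3.

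The wider pathway was covered by 71 further listed genes, of which 60 had enough counts. Averaged over lines and CO2, LPS raised 16 and lowered 30 of them, with a median effect of −0.17 log2 units against −0.01 for all genes, and 64.6% of all genes were called. The counts for its groups have to be read against the same share. Of the 8 tested genes of de novo synthesis from tryptophan 5 rose and 2 fell. Kynureninase KYNU went from 1.44 to 3.90 RPKM without LPS to 5.30 to 16.9 with it (2.41 ± 0.11 log2 units), and kynurenine 3-monooxygenase KMO rose by 1.03 ± 0.12. The tryptophan dioxygenases IDO1 and IDO2 rose by 4.56 ± 0.54 and 4.81 ± 0.34, but both were at the edge of detection. IDO1 had no count in 9 of 18 basal libraries and at most 0.848 RPKM with LPS, and IDO2 none in 11 of 18 and at most 0.391.

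The nicotinate receptors HCAR2 (4.86 ± 0.22) and HCAR3 (4.57 ± 0.17) also rose with LPS, HCAR2 from at most 0.189 RPKM to between 1.30 and 3.78. Of the 6 sirtuins besides SIRT1, 5 fell and 1 rose, with the mitochondrial SIRT4 at −1.07 ± 0.18. SIRT4 was low, at 0.0888 to 1.18 RPKM. Of 16 tested ADP-ribosyltransferases 10 fell and 3 rose, with PARP16, an enzyme of the endoplasmic reticulum, at −1.18 ± 0.07. The counts of both groups stand against 64.6% of all genes called for the averaged LPS effect. All of these named changes had adjusted p-values of at most 4.13e-06.

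CO2 raised 6 and lowered 15 of the 60 tested pathway genes on average, where 36.4% of all genes were called. KMO was higher at 10% CO2 (0.44 ± 0.12 log2 units, adjusted p = 0.00412), and the NAD hydrolase SARM1 (−0.54 ± 0.14, 0.00312) and the ryanodine receptor RYR3 (−0.48 ± 0.16, 0.0158) were lower. Both of the latter were near the detection limit, SARM1 at no more than 0.268 RPKM in any library and RYR3 at no more than 0.0964, with 5 to 38 counts. KMO was low too, at 0.221 to 1.42 RPKM. In shNR4A2 cells 15 rose and 9 fell (40.9% of all genes called), led by IDO1 (2.56 ± 0.88, 0.0207), the transporter SLC12A8 (0.88 ± 0.14, 4.22e-06) and PECAM1 (0.67 ± 0.07, 5.06e-09). PECAM1 encodes CD31, a ligand of CD38, and had 25.2 to 52.6 RPKM in shNT and 45.6 to 73.7 in shNR4A2 cells. In shNR4A3 cells 16 rose and 11 fell (32.9% of all genes called), led by IDO1 (2.93 ± 1.02, 0.0273), TDO2 (0.92 ± 0.27, 0.00887) and the ADP-ribose-gated channel TRPM2 (0.79 ± 0.09, 5.81e-08). The IDO1 calls were lost in 2 alternatives for shNR4A2 and 3 for shNR4A3. Its shNR4A2 effect ranged from 1.80 to 2.76 log2 units over the alternatives. IDO1 had no count in any basal shNT library, and 1, 1 and 27 counts in shNR4A2 at 5% CO2 with LPS. TDO2 was also near the detection limit, at no more than 0.280 RPKM in any library. SLC12A8 was low as well, at 0.233 to 0.910 RPKM.

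Over the 12 condition means CD38 and SIRT1 had a Pearson correlation of 0.870 on the log2 scale, and of 0.844 over the 36 libraries. NAMPT and NADK had −0.821 over the 12 conditions, CD38 and NMNAT1 −0.788, SIRT1 and PARP1 −0.781, and NADK and NMNAT1 0.764. The points of each pair come from the same libraries and share their depth and scaling, so these are descriptions. The correlations of CD38 also take in the CO2 difference on which it was chosen.

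**Figure D5:**
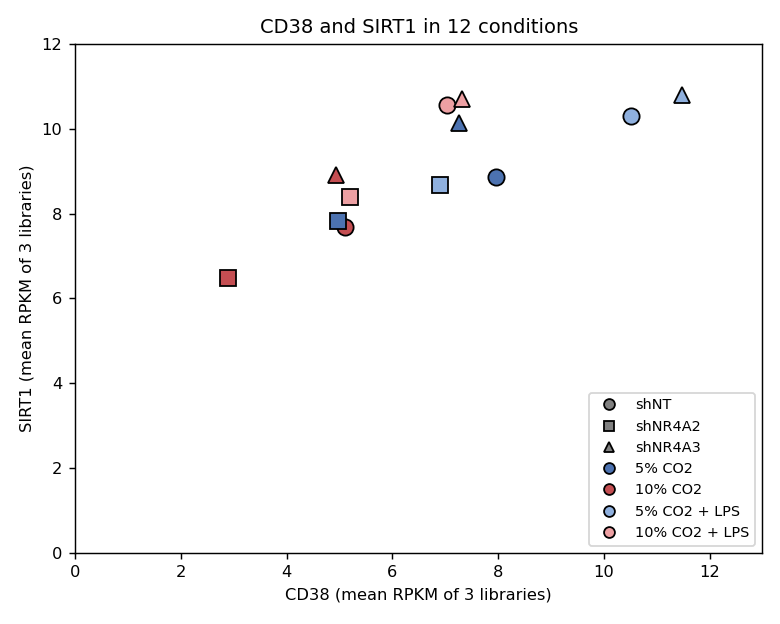
Mean RPKM of SIRT1 against mean RPKM of CD38 in the 12 conditions, each point the mean of 3 libraries, with shapes for the line and colours for CO2 and LPS. Basal shNR4A2 cells at 10% CO2 lie lowest on both axes (2.88 and 6.48 RPKM), and shNR4A3 cells at 5% CO2 with LPS lie highest on both (11.5 and 10.8 RPKM).

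The 5 tested genes most like CD38 over the 12 condition means were MAPK8 (Pearson correlation 0.971), PPHLN1 (0.969), RAB11B-AS1 (0.957), WDR48 (0.955) and MTURN (0.949). For NAMPT they were ATP2B1-AS1, EFNA1, TRAF1, EHD1 and TNFAIP8, with correlations of 0.997 to 0.998.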

How the data were processed

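Libraries were polyA selected and sequenced as 2x150 bp read pairs. Per the labels, the authors made the deposited gene counts with Trimmomatic 0.36, STAR 2.5.2b and featureCounts of Subread 1.5.2 on GRCh38. The annotation release and strand setting are not given in the sources used here. The counts were raw integers for 57500 genes. Genes were kept with filterByExpr (minimum count 10, minimum total 15), scaled by TMM and tested with the edgeR 4.0.16 quasi-likelihood test in R 4.3.3, with Benjamini-Hochberg adjustment over 17720 genes and a threshold of 0.05. Each single comparison used its own 6 libraries, and averaged effects and interactions came from 1 fit to all 36. The tests were first tried on simulated counts of independent libraries. These held no shift shared by same-numbered libraries, so they say nothing of how the fits behave under one. Alternatives were DESeq2 1.42.0, other scalings and filters, a replicate block and each library left out.

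The replicate number was taken as pairing libraries where same-numbered libraries deviated together in all 3 pairs (correlations over 0.1). This held in 7 of 20 comparisons, namely LPS in shNR4A2 at 5% CO2 and in shNR4A3 at both CO2 levels, CO2 in basal shNR4A2, shNR4A2 against shNT at 5% CO2 with and without LPS, and shNR4A3 against shNT at 5% CO2 with LPS. Members and gene lists were chosen with earlier results of these data known. The text names the 10 members, pathway genes called with an absolute log2 change of at least 1 (or else the 3 largest), and the 5 genes most like CD38 and NAMPT.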

Additional observations from a re-analysis of the deposited data

How the results depend on the processing

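The averaged LPS effect on CD38, NAMPT, NADK, NMNAT1 and NMNAT3, the averaged CO2 effect on NMNAT1, the averaged shNR4A2 effect on CD38, SIRT1, NAMPT and NAPRT and the averaged shNR4A3 effect on NAPRT and NADK kept direction and side of the threshold under all 42 alternatives run. The shNR4A2 calls among the members rose from 5 to 12 with the replicate block and ranged from 3 to 6 with 1 library left out. The lowest count of 3 came without shNT replicate 1 or 3, or shNR4A2 replicate 3, of 10% CO2 with LPS. The shNR4A3 calls went from 3 to 6 with the block and to 1 in a single fit to all 36 libraries (2 to 3 with 1 library left out). The block raised the calls among all 17720 genes too. For shNR4A2 against shNT at 5% CO2 they went from 1008 to 3803 without LPS and from 1101 to 4369 with it. For shNR4A3 against shNT at 5% CO2 with LPS they went from 958 to 3312. The added member calls are therefore no trait of this list. The CO2 count of 0 became 1 without shNT 5% CO2 + LPS replicate 3, when NMNAT1 was called, and otherwise stayed at 0. The interaction count of 0 became 1 with the block, for SIRT1 and LPS with CO2. In the comparisons taken as paired, the block changed no call other than those given with it above. Among the averaged effects the block added 6 calls, namely LPS on PARP1, CO2 on NMNAT3 (adjusted p = 0.0497) and NADSYN1 (0.0473), and shNR4A3 on NAMPT, SIRT1 (0.0107) and PARP1. The share of all genes called under the block is not given here for the averaged effects. Across all single comparisons 31 of 36 libraries correlated best with their own number.

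Scaled by total count alone, the averaged LPS effects of BST1 (−0.14) and NADSYN1 (−0.13) turned negative. Near 0, the averaged shNR4A3 effect of CD38 changed sign with RLE factors (0.0080), a 1 CPM filter (0.0042) and DESeq2 (0.0079), and that of NMNAT1 with RLE factors (0.0014) and DESeq2 (0.00092). With 1 library left out these ranged from −0.033 to 0.037 for CD38 and −0.044 to 0.052 for NMNAT1. Averaged CO2 effects then ranged from −0.072 to 0.045 for NAMPT and −0.025 to 0.0031 for PARP1, and averaged shNR4A2 effects from −0.042 to 0.0052 for BST1 and −0.039 to 0.073 for NMNAT1. The cause of these changes was not tested. NMNAT3, with 59 to 154 counts per library, had the least depth behind its values.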
